A study of Mus musculus with 8 samples.

Results

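The respiratory chain and ATP synthase genes of mouse dendritic cells were taken as the genes whose RefSeq symbols begin with Nduf, Sdha, Sdhb, Sdhc, Sdhd, Uqcr, Cyc1, Cox4i, Cox5, Cox6, Cox7, Cox8 or Atp5, together with the Ndufaf and Sdhaf assembly factors that fall under the same stems. Of 120 such symbols in the RefSeq gene table, 98 had a probe matched through its transcript accession, out of 20887 genes with a matched probe in all. They comprised 38 genes of complex I, 4 of complex II, 9 of complex III, 18 of complex IV, 17 of complex V (ATP synthase) and 12 assembly factors. The remaining 22 symbols, 19 of them pseudogenes and the others Ndufb1, Ndufb4b and Ndufb4c, were not analysed here, and neither were the subunits encoded by mitochondrial DNA, for which no probe was matched.

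Total RNA was measured on 8 single-colour Agilent arrays, 4 of LPS-treated cells and 4 of immature cells. The LPS-treated cells were immature cells given lipopolysaccharide, a Gram-negative bacterial wall component sensed by Toll-like receptor 4, at 50 ng/ml overnight and were labelled day 7. The immature cells had been grown from bone marrow monocytes of female C57BL/6 mice with IL-4 and 10 ng/ml GM-CSF and were labelled day 6; their source is also given as marrow progenitors. No untreated day 7 cells were among the samples, so LPS and the extra day in culture cannot be told apart, and the labels do not say whether the 4 replicates of a group came from separate animals or cultures, so p-values measure only the spread between these samples.

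Complexes I to IV pass electrons from NADH and succinate through ubiquinone and cytochrome c to oxygen, and complexes I, III and IV pump protons across the inner mitochondrial membrane as they do so. Complex V uses that proton gradient to make ATP, and succinate dehydrogenase (complex II) is also an enzyme of the tricarboxylic acid cycle. Dendritic cells grown with GM-CSF are known to move from oxidative metabolism towards glycolysis after exposure to LPS. Whether the transcripts of the respiratory chain followed that change is the question this comparison addresses, and it concerns RNA only, not oxygen consumption or protein.

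Levels are log2 signals of a gene's probe relative to the 75th percentile of its array, and a fold change is the LPS-treated mean minus the immature mean on that log2 scale. Genes whose probe stood well above background on every array of 1 group or both were tested, and a gene was called higher or lower at a Benjamini-Hochberg adjusted p of 0.05 from limma over all 12706 genes tested. The arrays had 47.5% to 51.3% of their spots well above background and no saturated spots, and the number of arrays limits the precision. All 8 lay on 1 slide, with the LPS-treated samples in slide row 2 and the immature samples in slide row 1, so row and treatment cannot be told apart. Of the dendritic cell markers examined, Itgax, Flt3, Zbtb46, H2-Aa, Dpp4 and Irf4 were well above background on all 8 arrays, whereas Cd209a was so on all 4 immature arrays and on 0 LPS-treated arrays. Of these 7 markers 2 were called higher and 3 lower after LPS, Itgax at -0.99 and H2-Aa at -0.75 on the log2 scale among the lower ones, and their summed signal, relative to the 75th percentile, was 158 to 191 on the LPS-treated arrays against 299.5 to 333.1 on the immature arrays. All 6 neutrophil markers tested were called lower after LPS, with summed signals of 239 to 442 on the LPS-treated arrays against 682 to 793 on the immature arrays. Of 5 macrophage markers 1 was called higher and 1 lower, with summed signals of 326 to 386 against 327 to 384. Of 5 mast cell and basophil markers Mcpt8, Cpa3 and Fcer1a were called lower, Kit was called higher and Gata2 was not called, with summed signals of 8.85 to 10.8 against 6.72 to 11. The erythroid markers Hbb-bs and Alas2, the stromal markers Col3a1 and Pdgfra and the B cell marker Pax5 were not above background on any array. Others of these lists were detected: the erythroid Hba-a1 on all 4 immature arrays and 0 LPS-treated arrays, the B cell marker Ms4a1 on 2 LPS-treated and 4 immature arrays, and the stromal Col1a2 and the T cell markers Cd3e and Cd4 on all 8. Of these Hba-a1 was called lower, as was the T cell marker Cd3d, also above background on immature arrays only. The part that cell composition plays in the results was not tested, and in bulk RNA fewer cells of a type cannot be told apart from less RNA per cell.

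Immature replicate 3 stood apart from the other arrays. Its scaled median absolute difference from the other immature arrays was 0.25 to 0.39 on the log2 scale, against 0.21 or less for every other pair within a group. It was the lowest of the 4 immature arrays for 73 of the 95 respiratory chain genes tested. Counts by complex, role and list are therefore also given without it. Leaving it out raised the calls over all genes too, to 61.0% called changed from 56.1%.

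Most respiratory chain transcripts moved little after LPS. Of the 95 genes tested, 15 were called higher, 18 lower and 62 neither, so that 34.7% were called changed, against 56.1% of all genes tested (31.4% higher and 24.7% lower). Their median log2 fold change was 0.00 with an interquartile range of 0.34, against 0.06 and 0.77 over all genes. Log2 fold changes beyond 0.5 in either direction were found for 10 members, or 10.5%, against 40.7% of all genes. Only Ndufa4l2 passed a log2 change of 1 together with the test, which 17.9% of all genes did. The LPS-treated and immature levels did not overlap for 38 members, or 40%, against 52.4% of all genes.

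The small changes were not accompanied by wide errors. The median standard error of the log2 fold change was 0.08 for the members and 0.12 for all genes. The members' probes were bright as a group, 76 of the 95 lying above the upper quartile of all genes' mean signal, and of the 3177 genes above that quartile 58.6% were called changed and 35.3% moved by more than 0.5 on the log2 scale. The remaining genes of the set, Cox7b2, Cox8b and Cox8c, which encode isoforms known from testis, heart and muscle, were not well above background on any array. Of 23 members with more than 1 tested probe, 21 had probes whose log2 fold changes lay within 0.25 of each other, and no member had probes called in opposite directions. Whether probes also bound RNA of pseudogenes or paralogues was not tested.

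**Figure D1:**
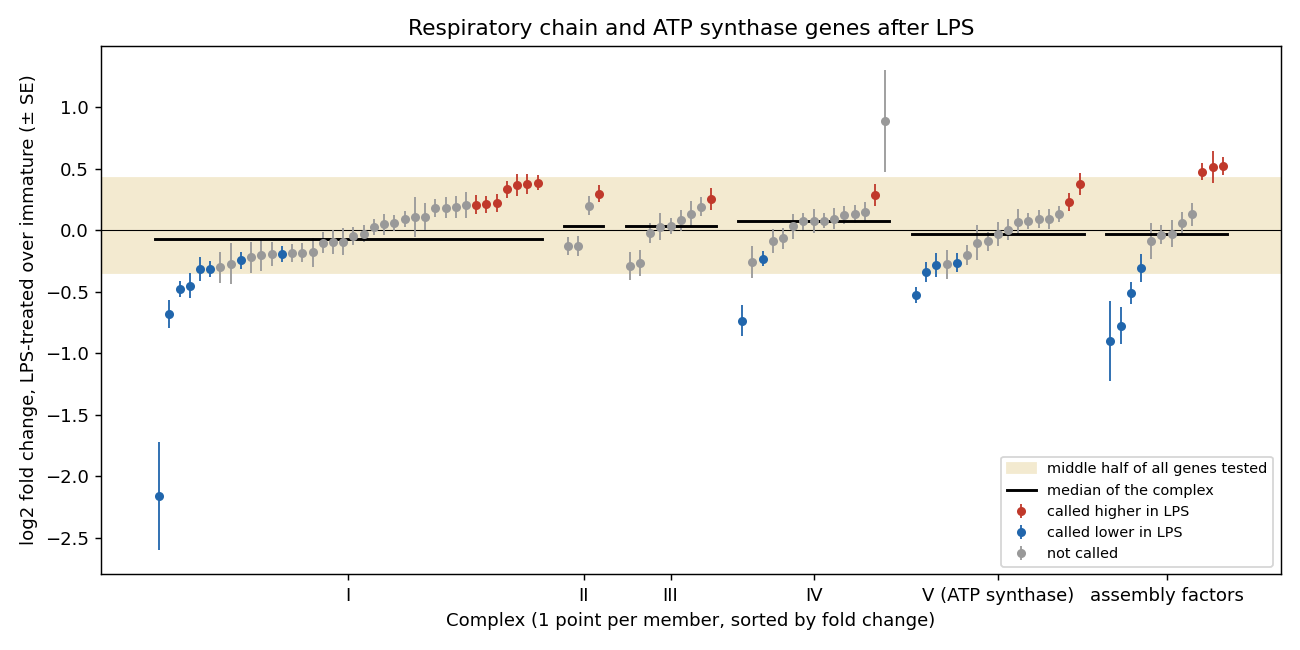
Log2 fold change (LPS-treated over immature, ± standard error, n = 4 arrays each) of the 95 respiratory chain and ATP synthase genes tested, sorted within each complex, with black lines at the complex medians and a shaded band over the interquartile range of all 12706 genes. Most points lie inside the band, and Ndufa4l2 at the far left, fitted at -2.16 although only 1 LPS-treated array measured it above background, lies far below it.

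No complex moved as a whole. The median log2 fold change was -0.07 over 38 genes of complex I, 0.04 over 4 of complex II, 0.04 over 9 of complex III, 0.07 over 15 of complex IV and -0.03 over 17 of complex V. Genes were placed by symbol, so complex I here includes Ndufa4, whose protein is known to belong to complex IV, and its paralogue Ndufa4l2. The numbers called were 7 higher and 8 lower in complex I, 1 and 0 in complex II, 1 and 0 in complex III, 1 and 2 in complex IV, and 2 and 4 in complex V. Without immature replicate 3 they were 5 and 16 in complex I, 1 and 1 in complex II, 1 and 2 in complex III, 2 and 4 in complex IV, and 2 and 6 in complex V. With all 8 arrays the shares called were 39.5%, 25%, 11.1%, 20% and 35.3% for complexes I to V, against 56.1% of all genes. Differences between complexes were not tested. The sign of these medians rests on the scaling: with arrays scaled to their median, left unscaled or scaled to spike-ins, the medians of all 5 complexes were negative.

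Scaling and immature replicate 3 also set the number of calls. Scaling to the array median shifted the centre of all fold changes by -0.17 (log2) and left 3 members called higher and 33 lower, and no scaling shifted it by -0.21 and left 2 higher and 37 lower. Under either, all 18 lower calls were kept, with 3 and 2 of the 15 higher calls. Of all genes called, 38.5% were higher with median scaling against 56.0% with the 75th percentile. Scaling to spike-ins left 4 higher and 13 lower, each of them among the calls first given. Without immature replicate 3, 14 members were called higher and 33 lower, and 30 of the 33 calls first given were kept. That was 49.5% of the members, against 61.0% of all genes tested without that array. In every one of the alternatives in which each could be tested, 9 genes kept a lower call (Ndufa4l2, Ndufb11, Ndufb5, Ndufs1, Ndufs8, Cox7a1, Atp5mpl, Ndufaf7 and Ndufaf8) and 2 kept a higher call (Ndufaf3 and Sdhaf2). Ndufa4l2 passed the background filter through the immature group alone. It was tested in 21 of 22 alternatives, and not where all 8 arrays had to be above background.

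**Figure D2:**
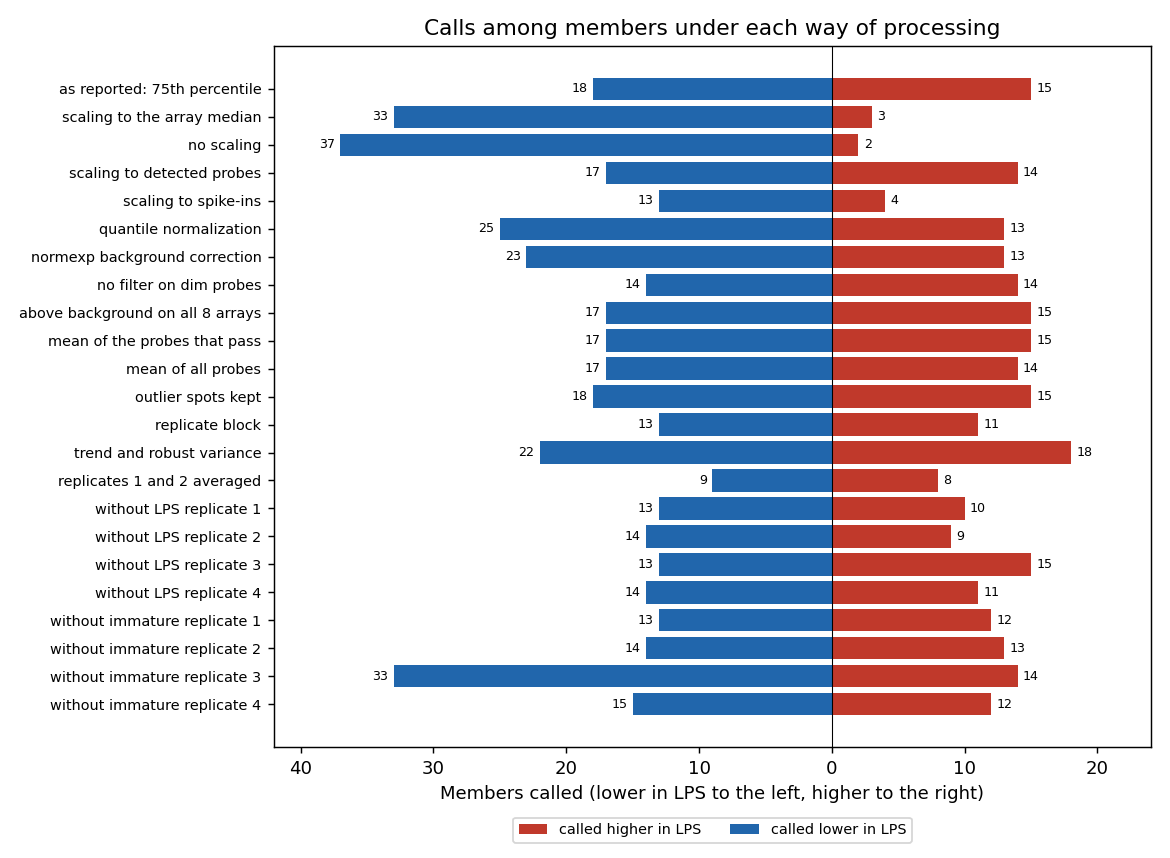
Number of respiratory chain and ATP synthase genes called lower after LPS (bars to the left) and higher (bars to the right) under each way of processing. The bars are near balance at 18 lower and 15 higher with the 75th percentile, and lower calls prevail with median scaling (33 against 3), with no scaling (37 against 2) and without immature replicate 3 (33 against 14).

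Complex I takes electrons from NADH through a flavin and a chain of iron-sulfur clusters. Of its 7 nuclear-encoded core subunits 2 fell and none rose (3 fell without immature replicate 3). The share called was 28.6%, all of it lower, against 56.1% of all genes called and 24.7% called lower. Ndufs8, which holds a pair of iron-sulfur clusters on the way to ubiquinone, had levels of 2.73, 2.54, 2.58 and 2.54 on the LPS-treated arrays, against 3.47, 3.44, 3.05 and 3.14 on the immature arrays. Every LPS-treated array was below every immature array, and the log2 fold change was -0.68 ± 0.11 (SE, n = 4 each, adjusted p = 0.00124, limma). Ndufs1, the largest subunit, which carries iron-sulfur clusters near the flavin, had levels of 3.71, 3.79, 3.60 and 3.69 after LPS, against 4.23, 4.30, 3.90 and 4.17 in immature cells. These groups did not overlap either, and the log2 fold change was -0.45 ± 0.10 (adjusted p = 0.00509).

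No other core subunit was called. The flavin-binding Ndufv1 averaged 5.20 ± 0.04 in LPS-treated and 5.39 ± 0.10 in immature cells (SD, n = 4 each; log2 fold change -0.19, adjusted p = 0.0554). It was called lower, at -0.24, without immature replicate 3. Ndufs7, which lines the ubiquinone site, had a log2 fold change of -0.05, and the iron-sulfur subunit Ndufv2 and the structural core subunit Ndufs3 had 0.03 and 0.09.

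Of the 29 accessory subunits of complex I tested, 7 rose and 5 fell, but without immature replicate 3 the counts were 5 and 12. These subunits surround the core and are known to be needed for its assembly or stability, with roles in catalysis unproven for most. The clearest increase was in Ndufa7, with levels of 6.38, 6.42, 6.33 and 6.37 after LPS against 5.94, 5.99, 6.03 and 5.99 in immature cells. The groups were well separated, with a log2 fold change of 0.39 ± 0.06 (adjusted p = 0.000951). Ndufs4, loss of which causes a Leigh-like encephalopathy in mice, had levels of 4.44, 4.63, 4.48 and 4.56 in LPS-treated cells against 4.17, 4.25, 3.99 and 4.18 in immature cells. Its log2 fold change was 0.38 ± 0.08 (adjusted p = 0.00453). Ndufs5, a subunit of the intermembrane-space side, had a log2 fold change of 0.37 ± 0.09 (adjusted p = 0.00962), with levels of 5.61 to 5.82 after LPS against 5.16 to 5.46 in immature cells.

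Smaller increases, of 0.21 to 0.33 on the log2 scale, were called for Ndufa2, Ndufa3, Ndufb3 and Ndufc2. All 7 of these accessory-subunit increases lost their call with no scaling, and Ndufa7 alone kept it with scaling to the array median or to spike-ins.

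The decreases were led by Ndufb11, a membrane-arm subunit encoded on the X chromosome. It had levels of 6.01, 6.12, 6.02 and 5.99 in LPS-treated cells against 6.55, 6.45, 6.54 and 6.51 in immature cells. The log2 fold change was -0.48 ± 0.07 (adjusted p = 0.000466), and its other probe gave -0.64. Ndufb5, also of the membrane arm, had levels of 4.65, 4.67, 4.55 and 4.58 after LPS against 4.96, 4.95, 4.88 and 4.92 in immature cells, a log2 fold change of -0.32 ± 0.06 (adjusted p = 0.00339). The groups did not overlap for either gene. Ndufa6, Ndufa10 and Ndufb10 had log2 fold changes of -0.32, -0.24 and -0.19, with calls kept in 18, 16 and 12 of 22 alternatives. Accessory subunits thus stood on both sides, from -0.48 to 0.39, with a median of 0.05.

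**Figure D3:**
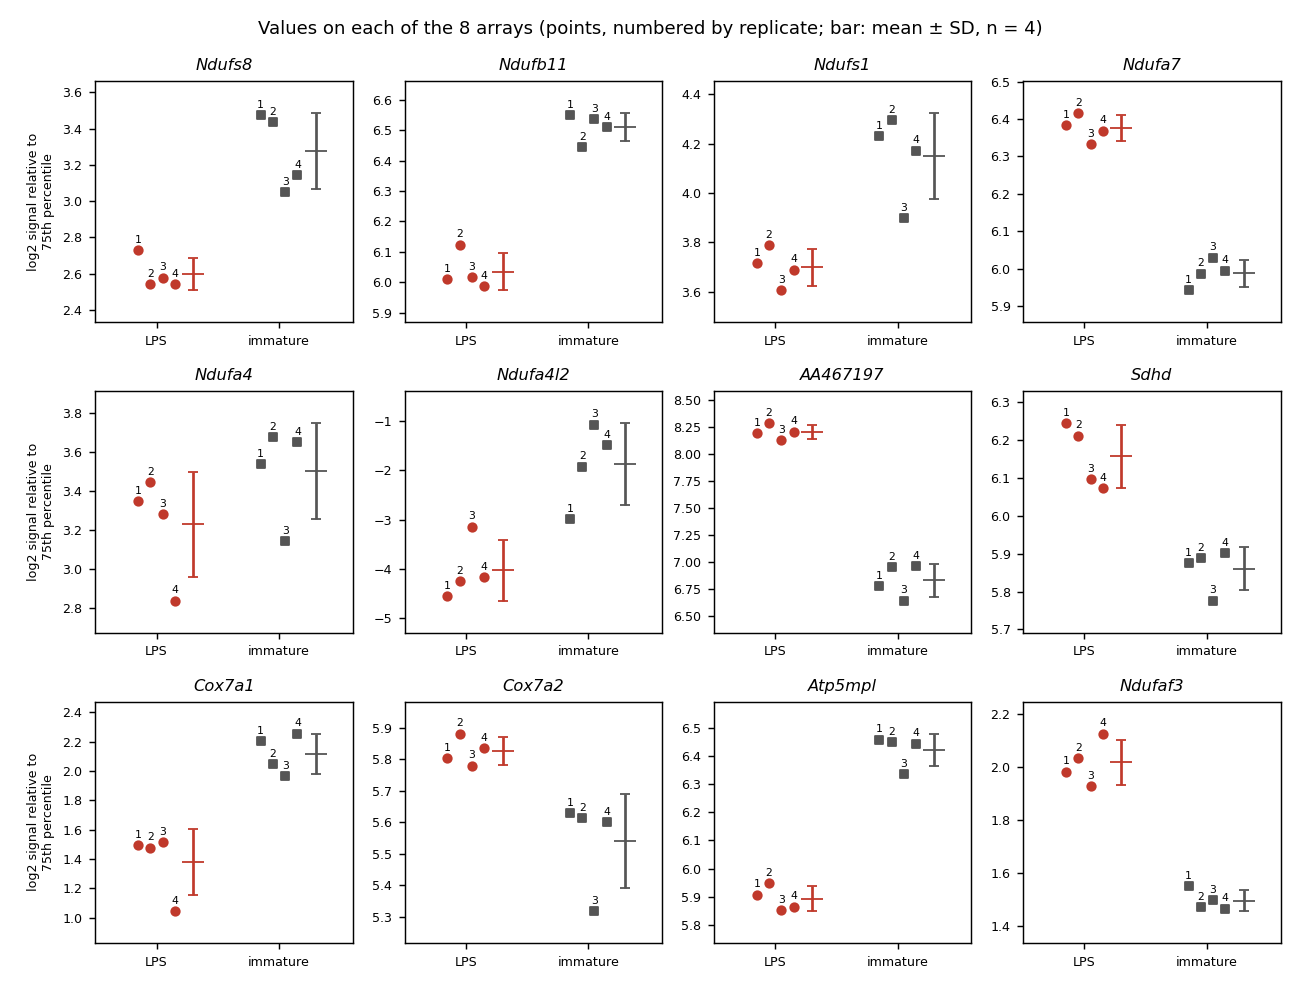
Level of 12 genes on each array (log2 signal relative to the array's 75th percentile, points numbered by replicate, LPS-treated left and immature right, bars at the mean ± SD of 4 arrays). The vertical axis differs between panels and does not start at 0. LPS-treated and immature points are apart in 11 of the panels, and they overlap for Ndufa4, where immature replicate 3 lies among the LPS-treated arrays.

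Ndufa4 carries a complex I name but its protein is known to be a subunit of complex IV. Its relatives Ndufa4l2 and AA467197 differed more between the groups than Ndufa4 did. Ndufa4 had levels of 3.35, 3.45, 3.28 and 2.84 in LPS-treated cells against 3.54, 3.68, 3.14 and 3.65 in immature cells. These overlap, and its log2 fold change of -0.27 ± 0.17 was not called (adjusted p = 0.192). Ndufa4l2, a paralogue known as a hypoxia-inducible gene that lowers complex I activity, had levels of -4.55, -4.25, -3.14 and -4.17 after LPS against -2.99, -1.92, -1.07 and -1.48 in immature cells. It was well above background on all 4 immature arrays and on 1 LPS-treated array. Its change is therefore an approximate bound, at least about 4.26-fold lower after LPS under the processing reported. In the 21 alternatives that tested it, the fitted log2 fold change ran from -2.53 to -0.83, so the bound does not hold under all. Ndufa4l2 passed the background filter through the immature group alone, and its adjusted p of 0.00344 is that of the fitted values and not of the bound. AA467197, also called Nmes1, lies outside the symbol rule; its transcript also hosts the microRNA miR-147, and its human counterpart is known to take the place of NDUFA4 in complex IV in inflamed cells. It had levels of 8.20, 8.29, 8.14 and 8.21 in LPS-treated cells against 6.78, 6.96, 6.65 and 6.96 in immature cells. Every LPS-treated array was higher, the log2 fold change was 1.37 ± 0.09 (adjusted p = 9.91e-06), and the call was kept in all 22 alternatives.

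Complex II oxidises succinate and passes the electrons to ubiquinone. Sdhd, one of its membrane anchors, rose: its levels were 6.25, 6.21, 6.10 and 6.07 after LPS against 5.88, 5.89, 5.78 and 5.90 in immature cells. The groups did not overlap, with a log2 fold change of 0.30 ± 0.07 (adjusted p = 0.00800), although the call was lost with scaling to the array median or spike-ins and with no scaling. Sdhb, the iron-sulfur subunit, averaged 6.17 ± 0.08 in LPS-treated and 5.97 ± 0.08 in immature cells (SD, n = 4 each) without overlap, and narrowly missed the threshold (adjusted p = 0.0553). Its log2 fold change was 0.20, and its other probe gave 0.10. The flavoprotein Sdha and the other anchor, Sdhc, each had a log2 fold change of -0.13 with overlapping groups, and Sdha was called lower, at -0.17, without immature replicate 3.

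In complex III, which passes electrons from ubiquinol to cytochrome c, 1 of 9 genes was called. The small subunit Uqcrq, which lies next to cytochrome b, had levels of 6.84, 6.93, 6.81 and 7.01 in LPS-treated cells against 6.69, 6.76, 6.44 and 6.68 in immature cells. Its log2 fold change was 0.26 ± 0.09 (adjusted p = 0.0401), and the call was lost in 13 of 22 alternatives, among them scaling to the array median or spike-ins, no scaling and leaving out immature replicate 3, where it was 0.19. The electron-carrying subunits were near 0: cytochrome c1 (Cyc1) had a log2 fold change of 0.03 and the Rieske iron-sulfur protein (Uqcrfs1) -0.02. The core proteins Uqcrc1 and Uqcrc2 had -0.29 ± 0.12 and 0.04 ± 0.06, and neither was called, but Uqcrc1 was called lower, at -0.39, without immature replicate 3.

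Complex IV, cytochrome c oxidase, reduces oxygen to water, and several of its nuclear-encoded subunits exist as common and tissue-restricted isoforms. Of the 11 common subunits 1 rose and 1 fell (1 and 2 without immature replicate 3). The share called was 18.2%, against 56.1% of all genes. Cox4i1, the common form of the subunit through which ATP is known to regulate the enzyme, had levels of 7.19, 7.22, 7.20 and 7.09 in LPS-treated cells against 7.41, 7.40, 7.42 and 7.40 in immature cells. Its immature levels varied by an SD of only 0.01, and the log2 fold change was -0.23 ± 0.06 (adjusted p = 0.0134). Cox7a2, the common form of subunit VIIa, had levels of 5.80, 5.88, 5.78 and 5.84 after LPS against 5.63, 5.61, 5.32 and 5.60 in immature cells, with a log2 fold change of 0.29 ± 0.09 (adjusted p = 0.0228). Its call was lost under median scaling, spike-in scaling and no scaling, whereas that of Cox4i1 was kept under each. The haem-bearing core of the enzyme is encoded by mitochondrial DNA, and the nuclear subunits Cox5a, Cox5b and Cox8a that surround it had log2 fold changes of -0.09, -0.07 and 0.08, none called. Cox5a was called lower, at -0.18, without immature replicate 3.

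Cox7a1, the VIIa isoform known from heart and skeletal muscle, was the member of complex IV with the largest called decrease. Its levels were 1.49, 1.48, 1.51 and 1.05 in LPS-treated cells against 2.20, 2.04, 1.96 and 2.26 in immature cells. The groups were apart, and the log2 fold change was -0.73 ± 0.13 (adjusted p = 0.00140). Cox6a2, the heart and muscle form of subunit VIa, had levels of -1.10, -0.79, -1.40 and 0.02 after LPS against -1.95, -1.87, -0.64 and -2.37 in immature cells. The groups overlap through immature replicate 3, and the log2 fold change of 0.89 ± 0.41 was not called (adjusted p = 0.0987), whereas without that array it was 1.25 (adjusted p = 0.0130). Cox4i2, the lung form of subunit IV, and Cox6b2, the testis form of subunit VIb, had log2 fold changes of 0.09 and -0.26, neither called, and Cox6b2 was called lower, at -0.34, without immature replicate 3.

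Ratios between isoforms on the same array do not depend on a scaling that subtracts 1 value from each array. They can change with quantile normalization or another background correction, under which they were not computed. The log2 ratio of Cox7a1 to Cox7a2 was lower by 1.02 after LPS, at -4.44 ± 0.24 in LPS-treated and -3.42 ± 0.10 in immature cells (SD, n = 4 each). The change of log2 ratio was 1.65 for AA467197 over Ndufa4, 0.33 for Cox4i2 over Cox4i1 and -0.39 for Cox6b2 over Cox6b1. In these 4 of 11 pairs the groups did not overlap, and the two-sided exact permutation p was 0.0286, the smallest that 4 against 4 arrays can give. After adjustment over the 11 pairs it was 0.0786, so no pair passed. Levels of single genes did not overlap for 52.4% of all genes, and no such share was computed for ratios of other genes. A ratio of probe signals shows unequal change and not the share of each isoform in the enzyme.

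In ATP synthase, the catalytic F1 head is built of the alpha and beta subunits around the central stalk. Atp5a1, the alpha subunit, fell: its levels were 6.02, 5.94, 5.96 and 5.99 in LPS-treated cells against 6.39, 6.43, 6.14 and 6.31 in immature cells, with a log2 fold change of -0.34 ± 0.08 (adjusted p = 0.00784). Its catalytic partner Atp5b, the beta subunit, had 7.42, 7.31, 7.46 and 7.40 after LPS against 7.45, 7.46, 7.20 and 7.45 in immature cells, a log2 fold change of 0.00 ± 0.08 (adjusted p = 0.969). The alpha subunit levels were apart and the beta subunit levels overlapped; the difference between the fold changes was not tested. In the central stalk, Atp5e, the epsilon subunit, rose by 0.23 ± 0.08 on the log2 scale (adjusted p = 0.0291), with the groups apart, and lost its call under median scaling, spike-in scaling and no scaling, while the gamma subunit Atp5c1 and the delta subunit Atp5d, at 0.13 and 0.08, were not called.

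The peripheral stalk holds the head still while the rotor turns, and 2 of its 4 genes fell, also 2 without immature replicate 3. The share called was 50% of these 4 genes, against 56.1% of all genes called and 24.7% called lower. Atp5pb (subunit b) had a log2 fold change of -0.26 ± 0.08 (adjusted p = 0.0167), with levels of 4.23 to 4.35 after LPS against 4.41 to 4.63 in immature cells. Atp5o, the oligomycin sensitivity subunit, had -0.28 ± 0.10 (adjusted p = 0.0355), with groups that overlap through immature replicate 3. Its call was lost when any 1 LPS-treated array, or immature replicate 1, 2 or 4, was left out. The 3 genes that encode the same mature c-ring protein, Atp5g1, Atp5g2 and Atp5g3, had log2 fold changes of -0.10, -0.20 and -0.28, none called, and without immature replicate 3 Atp5g1 and Atp5g3 were called lower, at -0.24 and -0.39.

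The small subunits at the membrane included the most extreme changes of complex V. Atp5mpl, the 6.8 kDa proteolipid, had levels of 5.91, 5.95, 5.85 and 5.87 in LPS-treated cells against 6.46, 6.45, 6.33 and 6.44 in immature cells. It was lower on every LPS-treated array, by -0.53 ± 0.07 on the log2 scale (adjusted p = 0.000256). Atp5md, a dimer-associated subunit also known as DAPIT, had 6.30, 6.30, 6.26 and 6.33 after LPS against 6.00, 6.01, 5.68 and 5.98 in immature cells. It rose, with a log2 fold change of 0.38 ± 0.09 (adjusted p = 0.00709), but not with scaling to the array median or spike-ins or with no scaling. The inhibitor of the enzyme's reverse reaction, Atpif1, which lies outside the symbol rule, averaged 7.47 ± 0.14 in LPS-treated and 7.43 ± 0.05 in immature cells (SD, n = 4 each) and was not called (adjusted p = 0.717).

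**Figure D4:**
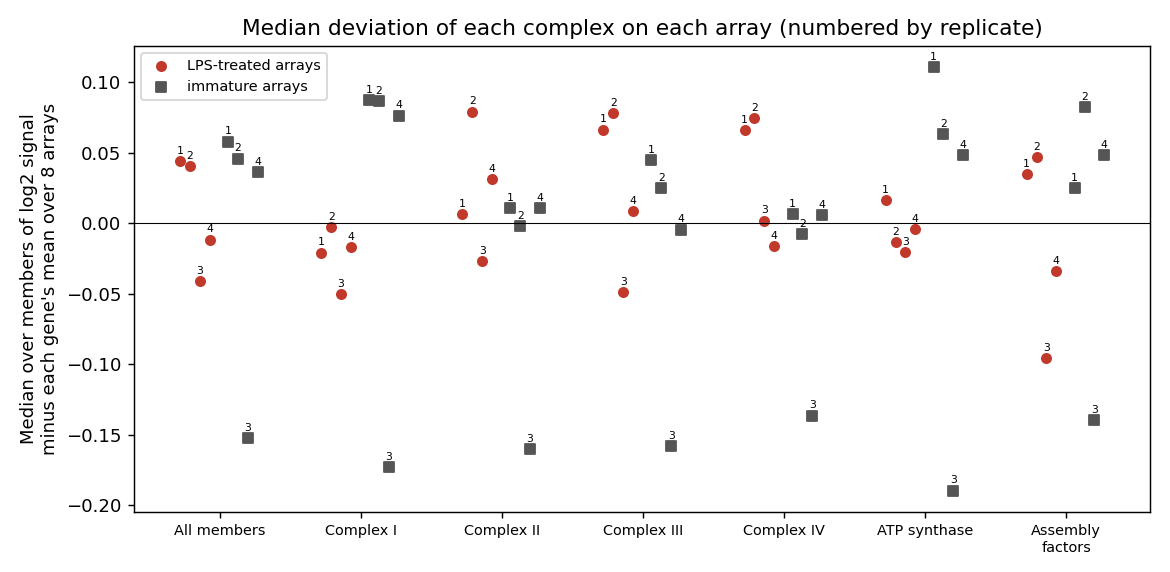
Median over the tested genes of each complex of the log2 level minus the gene's mean over the 8 arrays, for each array (points numbered by replicate, LPS-treated left and immature right within each complex). Immature replicate 3 is the lowest array for every complex, at -0.15 over all 95 genes, while the other arrays lie between -0.04 and 0.06.

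Assembly factors build the complexes but are not part of them. Of 12 tested 3 rose and 4 fell, and 5 had log2 fold changes beyond 0.5 in either direction. These shares, 58.3% called and 41.7% beyond 0.5, were near those of all genes (56.1% and 40.7%), and the calls numbered 3 and 4 without immature replicate 3 too. Among the 83 subunits tested 26 were called and 5 lay that far from 0. The difference between assembly factors and subunits was not tested. For complex I, 4 of 8 factors fell and 1 rose. Both complex II factors that were called, of 4 tested, rose.

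Promoter windows are shown for the 3 genes of the whole set with the largest called increases (Ndufaf3, Sdhaf1 and Sdhaf2) and, of the 3 with the largest called decreases (Ndufa4l2, Ndufaf4 and Ndufaf8), for Ndufaf4 and Ndufaf8. They are RefSeq windows of 300 bases, ending 50 bases after the annotated start, on GRCm38.p6 and printed on the gene's strand. Letters searched on both strands were GCATGCG (the core of the NRF1 site), CCGGAAG (GABP and other ETS factors), AAGATGG (YY1) and AAGGTCA (estrogen-related receptors), factors known to act on nuclear genes of the respiratory chain, and capitals mark the matches. Ndufaf4 lies at chr4:24897833-24898132 (plus strand) and Ndufaf8 at chr11:120098684-120098983 (plus strand), and both fell. Ndufaf3 at chr9:108567387-108567686, Sdhaf1 at chr7:30322326-30322625 and Sdhaf2 at chr19:10525160-10525459, all on the minus strand, rose.
Ndufaf4: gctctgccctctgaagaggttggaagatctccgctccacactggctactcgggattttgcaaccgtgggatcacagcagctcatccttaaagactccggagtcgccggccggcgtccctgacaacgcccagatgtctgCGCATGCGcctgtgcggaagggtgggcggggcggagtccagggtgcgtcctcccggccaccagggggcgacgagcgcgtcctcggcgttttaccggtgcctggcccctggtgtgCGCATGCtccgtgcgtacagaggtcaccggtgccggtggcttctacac
Ndufaf8: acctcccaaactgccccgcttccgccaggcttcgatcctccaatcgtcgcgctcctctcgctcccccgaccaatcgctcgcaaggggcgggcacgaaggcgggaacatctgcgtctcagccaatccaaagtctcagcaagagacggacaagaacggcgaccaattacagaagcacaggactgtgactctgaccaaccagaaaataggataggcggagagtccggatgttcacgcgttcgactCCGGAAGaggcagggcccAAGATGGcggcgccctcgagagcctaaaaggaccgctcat
Ndufaf3: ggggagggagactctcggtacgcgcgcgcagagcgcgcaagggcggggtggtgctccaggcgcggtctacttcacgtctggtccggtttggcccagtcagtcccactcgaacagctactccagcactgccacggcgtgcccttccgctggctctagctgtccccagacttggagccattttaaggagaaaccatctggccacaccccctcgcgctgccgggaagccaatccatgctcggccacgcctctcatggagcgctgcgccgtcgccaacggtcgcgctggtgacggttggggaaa
Sdhaf1: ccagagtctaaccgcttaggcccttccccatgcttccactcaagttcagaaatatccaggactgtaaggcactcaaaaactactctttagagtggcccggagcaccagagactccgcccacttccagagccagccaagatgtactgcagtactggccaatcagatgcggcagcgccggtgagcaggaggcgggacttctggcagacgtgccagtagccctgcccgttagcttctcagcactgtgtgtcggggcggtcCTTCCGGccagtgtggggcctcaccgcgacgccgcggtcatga
Sdhaf2: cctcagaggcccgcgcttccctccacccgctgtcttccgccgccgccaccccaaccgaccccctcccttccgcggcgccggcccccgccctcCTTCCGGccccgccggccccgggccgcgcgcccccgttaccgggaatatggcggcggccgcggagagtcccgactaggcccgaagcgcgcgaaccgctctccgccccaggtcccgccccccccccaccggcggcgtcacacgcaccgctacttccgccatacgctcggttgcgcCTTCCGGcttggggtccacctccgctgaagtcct

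Ndufaf4 held the NRF1 letters 3 times, 2 of these being overlapping matches on opposite strands of the same 8 bases. Ndufaf8 held a GABP and a YY1 match, Sdhaf1 held 1 and Sdhaf2 held 2 GABP matches, and the Ndufaf3 window held none of the letters. Of the 98 members, 80 had a window. The NRF1 letters were in 16.3% of members' windows against 4.01% of the 27025 genes with one, the GABP letters in 27.5% against 9.93%, the YY1 letters in 15% against 7.28% and the estrogen-related receptor letters in 10% against 5.38%. Among members with a window, the GABP letters were in 5 of 13 called higher, 2 of 12 called lower and 15 of 53 not called, and the NRF1 letters in 0, 2 and 11 of these. The YY1 letters were in 2, 2 and 8, and the estrogen-related receptor letters in 3, 0 and 5. A match is a run of letters and not a measured site.

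Ndufaf3, an early complex I factor, rose, with levels of 1.98, 2.03, 1.93 and 2.13 after LPS against 1.55, 1.47, 1.50 and 1.47 in immature cells. Its log2 fold change was 0.52 ± 0.07 (adjusted p = 0.000381). Ndufaf4, which is known to act together with Ndufaf3, had levels of at most 1.12 on 3 LPS-treated arrays and 1.35 on LPS-treated replicate 4, against 2.62, 2.73, 1.19 and 1.75 in immature cells. The 2 partners thus had called changes of opposite sign, but the Ndufaf4 groups overlap through immature replicate 3, its log2 fold change was -0.90 ± 0.32 (adjusted p = 0.0411), and its call was lost without any 1 LPS-treated array or without immature replicate 1 or 2. Without immature replicate 3 it was -1.19 (adjusted p = 0.00344). Its other probe gave -1.11.

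Ndufaf8, which works with Ndufaf5, had levels of 0.40, 0.41, 0.37 and 0.40 in LPS-treated cells against 1.48, 1.41, 0.77 and 1.03 in immature cells. Every LPS-treated array was below every immature array, with a log2 fold change of -0.78 ± 0.15 (adjusted p = 0.00295). Ndufaf5, a hydroxylase that modifies the core subunit Ndufs7, was not called, at 0.06 ± 0.09. Ndufaf7, a methyltransferase needed for complex I assembly, had levels of 1.92 to 2.09 after LPS against 2.31 to 2.63 in immature cells, without overlap, a log2 fold change of -0.51 ± 0.09 (adjusted p = 0.00185). Ndufaf6 was called lower by a narrow margin, at -0.31 ± 0.11 (adjusted p = 0.0499), in overlapping groups.

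Of the complex II factors, Sdhaf2, which is needed to attach the flavin to Sdha, had levels of 3.16, 3.07, 3.24 and 3.17 in LPS-treated cells against 2.67, 2.63, 2.67 and 2.77 in immature cells. The log2 fold change was 0.48 ± 0.07 (adjusted p = 0.000607) with the groups apart. Sdhaf1, which is needed to give Sdhb its iron-sulfur clusters, had 3.86, 3.82, 3.60 and 3.54 after LPS against 3.41, 3.34, 3.04 and 2.97 in immature cells, a log2 fold change of 0.51 ± 0.13 (adjusted p = 0.00920). Its call was lost with scaling to the array median and with no scaling. Sdhaf3 and Sdhaf4, at -0.03 and 0.13, were not called.

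Regulators of mitochondrial biogenesis, a list of nuclear factors and of the machinery that copies and transcribes mitochondrial DNA, were mostly lower. Of 17 tested, 11 fell, 1 rose and 5 were not called, with a median log2 fold change of -0.45 against 0.06 over all genes. Over all genes 24.7% were called lower and 31.4% higher. Between 9 and 12 were called lower in each alternative, and 11 without immature replicate 3. The coactivator Ppargc1b had levels of -2.92, -3.16, -2.46 and -2.44 in LPS-treated cells against -0.99, -1.17, -1.91 and -1.56 in immature cells. It was lower on every LPS-treated array, with a log2 fold change of -1.34 ± 0.24 (adjusted p = 0.00171). Its relative Pprc1 had -1.06 ± 0.28 (adjusted p = 0.0132), and Ppargc1a was not well above background on any array.

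Among the transcription factors, Nrf1 (nuclear respiratory factor) had levels of 0.71, 0.77, 0.91 and 1.00 after LPS against 1.54, 1.52, 1.15 and 1.37 in immature cells, a log2 fold change of -0.55 ± 0.11 (adjusted p = 0.00353), not called when its probes were averaged. Gabpa, the DNA-binding subunit of GABP, had -0.45 ± 0.08 (adjusted p = 0.00197), and Yy1 had 0.23 ± 0.08 (adjusted p = 0.0381), a call lost in 14 of 22 alternatives. Thus of the factors whose letters were searched above, 2 were lower, and Esrra, at -0.11, was not called. In the organelle's own transcription machinery, the packaging factor Tfam fell by 0.34 on the log2 scale and the polymerase Polrmt by 0.47. The Polrmt call (adjusted p = 0.0367, limma) was kept in 15 of 22 alternatives and lost without any 1 LPS-treated array. The transcription factor Tfb2m fell by 0.67 and the ribosomal RNA methylase Tfb1m by 0.70. Lrpprc, which stabilises mitochondrial messenger RNAs, averaged 3.11 ± 0.09 in LPS-treated and 3.78 ± 0.19 in immature cells (SD, n = 4 each; adjusted p = 0.000954).

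Genes that feed or carry electrons beside the complexes moved in both directions. Of 8 other enzymes that pass electrons to ubiquinone 3 were called higher and 3 lower, as they were without immature replicate 3. The share called was 75%, against 56.1% of all genes (31.4% higher and 24.7% lower). Gpd2, the mitochondrial glycerol-3-phosphate dehydrogenase, had levels of 2.22, 2.18, 2.02 and 2.16 in LPS-treated cells against 1.29, 1.44, 0.89 and 1.34 in immature cells. It rose by 0.90 ± 0.12 on the log2 scale (adjusted p = 0.000411). Etfb, a subunit of the flavoprotein that takes electrons from fatty acid oxidation, had 5.30, 5.35, 5.20 and 5.15 after LPS against 6.22, 6.28, 5.97 and 6.23 in immature cells. It fell, with a log2 fold change of -0.92 ± 0.09 (adjusted p = 8.25e-05). Dhodh, of pyrimidine synthesis, had -0.57 ± 0.10 (adjusted p = 0.00186). Choline dehydrogenase, Chdh, was well above background on all LPS-treated and 0 immature arrays, at least about 2.76-fold higher (an approximate bound). That bound is of the processing reported, and over the alternatives the fitted log2 fold change of Chdh ran from 0.60 to 1.80. Chdh passed the background filter through the LPS-treated group alone, so its adjusted p of 0.000408 is that of the fitted values. Of 13 tested genes of cytochrome c and ubiquinone synthesis 4 rose and 2 fell (4 and 3 without immature replicate 3). The share called, 46.2%, was below the 56.1% of all genes. Pdss1, which makes the ubiquinone side chain, had a log2 fold change of -1.30 ± 0.28 (adjusted p = 0.00469), and Coq10b, a ubiquinone-binding protein, had 0.89 ± 0.15 (adjusted p = 0.00110).

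Of 6 tested carriers and uncoupling proteins 2 were called higher and 3 lower, as they were without immature replicate 3. The share called was 83.3%, against 56.1% of all genes. Ucp2, a carrier that is common in immune cells, had levels of 3.14, 3.16, 3.04 and 2.98 in LPS-treated cells against 3.89, 3.89, 3.71 and 3.82 in immature cells, a log2 fold change of -0.75 ± 0.08 (adjusted p = 9.24e-05). Its close relative Ucp3 had -0.69 ± 0.07 (adjusted p = 0.000130), and lost the call when all its probes were averaged. Ucp1 was well above background on all LPS-treated and 0 immature arrays, at least about 2.63-fold higher (an approximate bound). That bound is of the processing reported, and over the alternatives the fitted log2 fold change ran from 0.59 to 2.36. Ucp1 likewise passed the filter through the LPS-treated group alone. Among the adenine nucleotide carriers that exchange ADP for ATP, Slc25a4 rose, at 0.32 ± 0.07 on the log2 scale (adjusted p = 0.00399), and Slc25a5 fell, at -0.44 ± 0.09 (adjusted p = 0.00278); the Slc25a4 call was lost with median, spike-in or no scaling.

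Assembly factors outside the symbol rule were also called in both directions. The shares called were 50% for complex I, 40% for complex III, 43.5% for complex IV and 75% for ATP synthase. Over all genes the share was 56.1%. For complex I, 2 of 10 rose and 3 fell (0 and 4 without immature replicate 3), with Tmem186 at -0.56 ± 0.14 (adjusted p = 0.00845) and Ecsit, which is also known as a Toll-like receptor signalling adaptor, at -0.45 ± 0.09 (adjusted p = 0.00365). For complex III, 1 of 5 rose (Uqcc3, 0.33 ± 0.08, a call lost with median, spike-in or no scaling), and 1 fell, Bcs1l, which inserts the Rieske protein (-0.36 ± 0.07). For complex IV, 7 of 23 rose and 3 fell (8 and 3 without immature replicate 3). The copper chaperones Sco1 and Sco2 went apart: Sco1 had levels of -0.88, -0.88, -1.05 and -0.62 in LPS-treated cells against -1.48, -1.51, -1.72 and -1.59 in immature cells, and Sco2 had 1.15, 1.09, 1.28 and 1.43 against 2.34, 2.40, 1.76 and 1.87. The log2 fold changes were 0.72 ± 0.11 (adjusted p = 0.000625) and -0.86 ± 0.16 (adjusted p = 0.00234), and neither pair of groups overlapped. Cmc2 rose by 0.95 ± 0.16 on the log2 scale (adjusted p = 0.00115), and Cox10, which makes the precursor of haem A, had -0.95 ± 0.26 (adjusted p = 0.0131). For ATP synthase, Tmem70, which helps build the c-ring, rose by 0.70 ± 0.08 in a call kept in all 22 alternatives. Atpaf2 rose by 0.32 ± 0.06 but lost its call with median, spike-in or no scaling and with its probes averaged, and Fmc1 had -0.58 ± 0.13 (adjusted p = 0.00574).

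**Figure D5:**
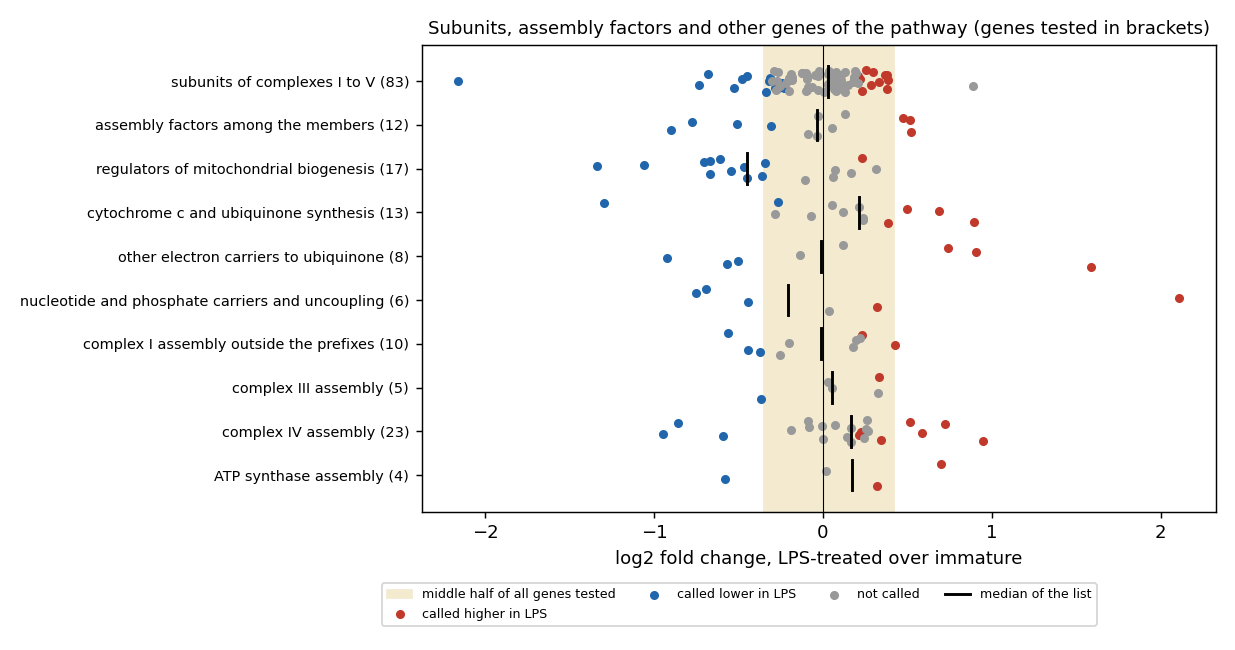
Log2 fold change (LPS-treated over immature) of the tested genes of each list, with points coloured by call, black lines at the list medians and a shaded band over the interquartile range of all 12706 genes. The subunits cluster around a median of 0.03, the regulators of mitochondrial biogenesis lie mostly to the left at a median of -0.45, and the rightmost point, Ucp1, and Chdh were below background in immature cells, so that their fitted values are not measured folds.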

How the data were processed

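Scans were quantified by the authors in Agilent Feature Extraction 11.0.1.1, per the submitters' processing notes. Processed signals as deposited were taken, an intensity corrected for background but unscaled from array to array (per the file headers), and the deposited 0 or 1 score columns flag outlier, saturated and well-above-background spots. Outlier spots (122 to 206 per array) were left out, log2 signals averaged over a probe's spots and the 75th percentile of non-control spots subtracted. Probes were named through RefSeq transcript accessions (27509 of 55681), and each gene took the matched probe with the highest mean over 8 arrays. All 12706 genes that passed the background filter were fitted with lmFit and eBayes (limma 3.58.1, R 4.3.3) and adjusted by the Benjamini-Hochberg method. A probe counted as well above background where at least 0.5 of its used spots carried that flag. For bounds, values below the dimmest detected level of that array were raised to it, and other values were left as measured. Some values not well above background lay above that level, so the bounds are approximate. They hold for the processing reported and not for every alternative. The standard error of a bound gene is not given. Promoter windows are RefSeq's, on GRCm38.p6.

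Named were the catalytic cores, the isoform pairs, and the called genes with the largest changes (3 each way per complex, 2 per other list). Some genes under this rule and the marker lists are not reported here. Lists of marker genes covered dendritic cells, macrophages, neutrophils, B cells, T cells, mast cells and basophils, erythroid and stromal cells. The members and lists were chosen with earlier results of these data known. Replicate numbers were not used as pairs in the fit reported, and the labels do not say what a number shares. Same-numbered samples' deviations correlated at 0.19, 0.02, 0.05 and -0.10, and differently numbered ones at -0.16 to 0.27. These values cannot settle whether the numbers pair the samples. Alternatives covered scaling, background correction, the filter, the probe rule, outlier spots, the variance model, a replicate block, averaging replicates 1 and 2, and leaving out each array.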

Additional observations from a re-analysis of the deposited data

Results flagged for a closer look

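Among 174 groups of 4 arrays examined, 18 held an array whose gap to its nearest neighbour, as a share of the group's range, was above Dixon's 95% critical value, which chance alone gives in about 1 in 20 groups. In 16 of them the array was immature replicate 3. It was the lowest of the immature arrays for the members' median deviation (gap share 0.896) and for that of complexes I (0.957), II (0.923) and IV (0.902). Among single genes it was the lowest for Uqcrc1 (0.883), Cox5a (0.863), Atp5b (0.980), Cox6a1 (0.836), Cox7a2 (0.910), Atp5g1 (0.844), Ndufs5 (0.934), Atp5mpl (0.888) and Atp5md (0.904). It was the highest for Cox8a (0.868), the ubiquinone synthesis gene Coq8a (0.870) and the complex III assembly factor Uqcc3 (0.937). For Atp5b, the ATP synthase beta subunit, the level was 7.20 on that array against 7.45 or more on the other immature arrays. LPS-treated replicate 4 was the lowest of its group for Cox7a1 (0.922), at 1.05 against 1.48 or more, and the highest for Ndufaf4 (0.929), at 1.35 against 1.12 or less.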

How the results depend on the processing

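With scaling to the array median the members' median log2 fold change was -0.17, with 3 called higher and 33 lower and 2615 of all genes called higher; the medians of complexes I, II, III, IV and V and the assembly factors were -0.24, -0.14, -0.14, -0.10, -0.20 and -0.21. With no scaling the same values were -0.20, 2, 37 and 2428, and -0.28, -0.17, -0.17, -0.13, -0.24 and -0.24. With spike-in scaling 4 members were called higher, and the medians were -0.0753 over all members and -0.0434, -0.0439 and -0.0049 for complexes II, III and IV. With no filter on dim probes 7628 genes were called higher, of the larger number then tested. Averaging replicates 1 and 2, the closest pair in each group, left 8 higher and 9 lower. With each array left out in turn, members called higher numbered 9 (without LPS-treated replicate 2) to 15 and lower 13 to 33 (33 without immature replicate 3); over all genes 3441 to 4277 and 2740 to 3622 were called, and the members' median ran from -0.04 to 0.02. The cause of these differences was not tested. The replicate number as a block gave 11 higher and 13 lower. Whether the numbers pair the samples is not known. No member or other listed gene was called in the opposite direction under any alternative. Naming by accession only was already the rule used, since the files hold no other gene name, so that alternative was not run. The arrays cannot show changes of dim probes, such as Ndufa4l2, Ucp1 and Chdh, beyond a bound.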
